A study of Drosophila melanogaster with 3 samples.

Results

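The genes described here are 50 regulators of pattern and cell fate in the Drosophila melanogaster embryo. They were listed by name in 5 classes and looked up in the Ensembl annotation of the fly genome (BDGP6, release 115), where all 50 were found among 13968 protein-coding genes on the main chromosome arms. The classes are 12 anterior-posterior genes (bcd, cad, hb, Kr, kni, knrl, gt, tll, hkb, oc, ems and btd), 8 pair-rule genes (eve, ftz, run, odd, prd, opa, slp1 and slp2), 12 dorsal-ventral genes (dl, twi, sna, sog, rho, brk, zen, dpp, tld, vnd, ind and sim), 11 neurogenesis genes (ac, sc, ase, ato, dpn, pros, elav, nerfin-1, wor, esg and SoxN) and 7 mesoderm and muscle genes (Mef2, tin, bap, how, bin, htl and nau). Each was examined for sites occupied by the protein CG34224, located by chromatin immunoprecipitation and sequencing (ChIP-seq). All 3 libraries form 1 group and came from whole embryos, 0 to 24 hours old, of a transgenic strain, CG34224-GFP, that expresses CG34224 joined to eGFP; the protein was precipitated with an antibody against GFP. A control experiment that the labels name was not analysed here, and the labels call the libraries biological replicates 1, 2 and 3 of 1 strain.

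The embryo of the fly is divided along its length by a cascade of transcription factors. Maternal gradients such as that of Bicoid (bcd) set the broad domains of the gap genes, these place the stripes of the pair-rule genes, and a gradient of nuclear Dorsal (dl) divides the embryo from back to belly into mesoderm, neural ectoderm and dorsal ectoderm. Later genes of the list commit cells to become neuroblasts, neurons or muscle. Many of these genes are read in a few cells for a short time. Since a library mixes all tissues and stages, strong occupancy in few cells and weak occupancy in many cannot be told apart.

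A gene was called bound when the summit of a peak, its highest point, lay within 500 bp of 1 of its annotated start sites. The peaks were those the authors passed by the irreproducible discovery rate (IDR), a measure of how well a peak repeats, and the main list was the series' conservative list of 4395 peaks. The thresholded lists of replicates 1, 2 and 3 held 2667, 2844 and 4146 peaks. The series lists name all 3 libraries as their source and are not independent of the replicate lists, but it is not stated which libraries were compared to pass a peak, so the conservative list may rest on fewer than 3. Each replicate also has a longer ranked list that keeps peaks which failed the threshold. The score given for a gene is the highest IDR-scaled score within 500 bp of a start site there, at most 1000. No passing peak scored below 830, but such a score did not always go with a passing peak. In replicates 1, 2 and 3, 3008, 3176 and 4086 protein-coding genes reached 830, while 2941, 3111 and 4000 were bound. No read counts were used, so sequencing depth is unknown. The authors' peak signal has no stated scale and is given here with its percentile within its own list.

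CG34224-eGFP was found at the promoters of 16 of the 50 genes (32.0%, 95% Wilson interval 20.8 to 45.8, which covers counting error only), against 29.7% of all protein-coding genes. The share of the patterning genes was thus near that of the genome. The bound genes were oc, ems, btd, opa, slp2, dl, sog, brk, dpp, pros, elav, esg, SoxN, Mef2, tin and how. In the replicate lists 8, 9 and 11 members were bound in replicates 1, 2 and 3, or 9.33 ± 1.53 (SD, n = 3), which is 16%, 18% and 22% of them, against 21.1%, 22.3% and 28.6% of protein-coding genes. The members' share was below that of the genome in each of the 3 replicate lists. The Wilson intervals (8.34 to 28.5, 9.77 to 30.8 and 12.75 to 35.2) each contained the genome's share. The same 50 genes are scored in each list, so the lists are not separate draws of genes. Only opa, sog, dpp, SoxN and Mef2 were bound in all 3 replicate lists (10% of members, against 17.3% of protein-coding genes), while 16 were bound in at least 1 (32.0%, against 31.5%). These 16 are not the same set as in the conservative list, since btd and slp2 were in no replicate list and bcd and odd were in 1 each.

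**Figure D1:**
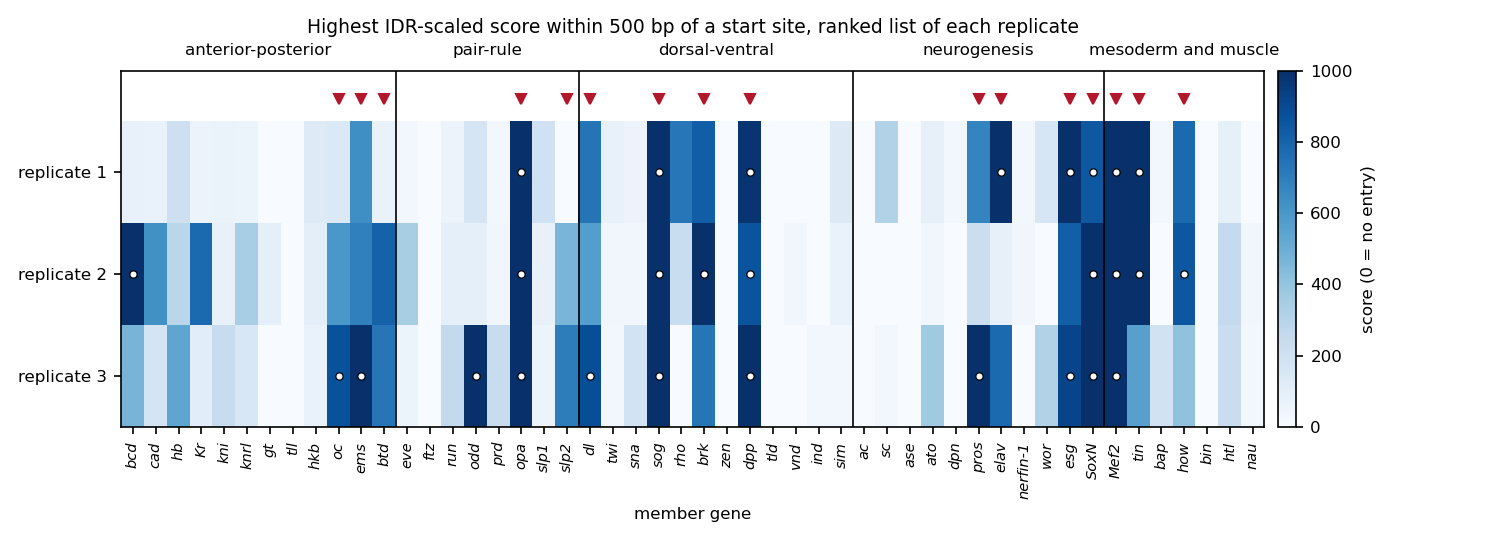
Each column is 1 of the 50 genes and each row 1 replicate; the shade gives the highest IDR-scaled score (0 to 1000) of any entry within 500 bp of a start site in that replicate's ranked list, white circles mark peaks that passed the authors' threshold, and red triangles mark the 16 genes bound in the conservative list. The columns of opa, sog, dpp, SoxN and Mef2 carry a circle in all 3 rows, and tll, ftz, zen, tld, ac, ase and bin are empty in all 3.

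The genome sequence at the strongest of these sites is printed here from 50 bp before to 50 bp after the summit, read 5′ to 3′ on the strand of the gene (RefSeq assembly of Release 6, the dm6 build). The genes are the 5 bound members of highest signal after Mef2. Capitals mark any of the 8 motifs searched, which are described further on. In tin and esg they mark the TATA box letters and in sog the GAGA repeat; opa and SoxN hold none of the 8.
tin, chr3R:21378772-21378872, plus strand: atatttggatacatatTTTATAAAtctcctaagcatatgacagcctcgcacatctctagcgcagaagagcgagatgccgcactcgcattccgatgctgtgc
opa, chr3R:4852477-4852577, plus strand: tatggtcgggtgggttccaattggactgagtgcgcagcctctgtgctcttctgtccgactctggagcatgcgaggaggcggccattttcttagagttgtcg
esg, chr2L:15333779-15333879, plus strand: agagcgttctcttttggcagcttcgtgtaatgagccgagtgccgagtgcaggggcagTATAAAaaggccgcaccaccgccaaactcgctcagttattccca
SoxN, chr2L:8825419-8825519, plus strand: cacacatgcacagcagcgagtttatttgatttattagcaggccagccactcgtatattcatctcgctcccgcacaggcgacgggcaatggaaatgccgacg
sog, chrX:15633460-15633560, minus strand: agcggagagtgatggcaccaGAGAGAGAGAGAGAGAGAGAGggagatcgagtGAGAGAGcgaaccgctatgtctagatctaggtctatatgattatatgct

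The anterior-posterior class had 3 of its 12 genes bound, and all 3 are head gap genes, which pattern the segments of the anterior head. A peak stood 162 bp upstream of oc (orthodenticle, a homeodomain factor; FBgn0004102) at X 8650575 to 8651110, with a signal of 115.1 at percentile 11.1. The peak of ems (empty spiracles, also a homeodomain factor; FBgn0000576) lay 77 bp upstream at 3R 13901508 to 13902043, with a signal of 183 at percentile 35.8. Both were found in the thresholded list of replicate 3 alone, with signals of 76.1 (percentile 15.3) for oc and 97.6 (percentile 34.7) for ems. They had best ranked scores of 139, 598 and 871 for oc and of 634, 688 and 1000 for ems in replicates 1, 2 and 3. The zinc finger gene btd (FBgn0000233) had a summit 169 bp upstream, at X 9693749 to 9694284, with a signal of 159 (percentile 25.5), and a weaker one 157 bp downstream. None of the replicate lists passed a peak there, and the ranked scores were 69, 808 and 727 beside the lowest passing score of 830.

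The maternal gradient genes bcd and cad and the trunk gap genes hb, Kr, kni, knrl and gt were not bound in the conservative list, nor were the terminal gap genes tll and hkb. At bcd the list of replicate 2 held a peak 140 bp upstream of the start site with a signal of 75.4 (percentile 42.2) and a ranked score of 1000, while the scores were 77 and 472 in replicates 1 and 3. The longest of the other series lists also held a peak there, 138 bp upstream with a signal of 166. Kr, a zinc finger gap gene, had a peak 78 bp upstream with a signal of 116 in 2 other series lists and no passing peak in a replicate, where the scores were 56, 776 and 106. At hb the best score in any replicate was 539, at cad 627 and at knrl 345. The kni, hkb and gt promoters did not exceed 238, 123 and 86.

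The pair-rule class had 2 of 8 genes bound, opa and slp2. The peak of opa (FBgn0003002), a zinc finger gene of the Zic family, lay at 3R 4852259 to 4852794, 286 bp upstream of its single start site, farther than in any other member. Its signal was 287 in the conservative list (percentile 62.9), and in replicates 1, 2 and 3 it was 81.9, 71.8 and 161, at percentiles 42.9, 38.2 and 68.2. The forkhead gene slp2 (FBgn0004567) had a peak 122 bp upstream at 2L 3836450 to 3836985 with a signal of 122 (percentile 12.3). It passed in no replicate, with no ranked entry in replicate 1 and scores of 467 and 703 in replicates 2 and 3. Its neighbour and paralogue slp1 had no passing peak and a highest score of 202. Of the remaining stripe genes, odd had a peak 209 bp downstream of its start site in replicate 3 but in neither other replicate, with a signal of 80.6 (percentile 18.4), and in the longest of the other series lists, with a signal of 153. At eve, run and prd no score exceeded 342, and ftz had no entry in any replicate.

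Of the 12 dorsal-ventral genes 4 were bound, and 2 of them, dpp and sog, form a ligand and antagonist pair. The bone morphogenetic protein ligand gene dpp (FBgn0000490) carried peaks at 2 of its 4 start sites. They lay 26 bp downstream of the fourth (2L 2454495 to 2455030, signal 222, percentile 48.5) and 214 bp upstream of the third (2L 2450747 to 2451282, signal 197, percentile 40.5). Replicate 1 had a peak at both, replicate 2 at the fourth and replicate 3 at the third. The gene was therefore bound in all 3 replicates, but no single start site was. Its antagonist sog (FBgn0003463) was bound 76 bp upstream of its first start site at X 15633242 to 15633777, with a signal of 243 (percentile 54.4). The peak passed in each replicate, with signals of 71.8, 66.5 and 110 and percentiles of 32.4, 33.5 and 44.8.

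The repressor gene brk (FBgn0024250), which shuts off Dpp targets, had a peak 199 bp upstream at X 7307472 to 7308007 with a signal of 219 (percentile 47.5). It passed in replicate 2 alone with a signal of 62.5, with scores of 823, 1000 and 733 in replicates 1, 2 and 3, and its summit fell in an annotated intron of CG1677 and the non-coding gene lncRNA:CR44357. The maternal factor gene dl (FBgn0260632) had a peak 19 bp upstream of its first start site at 2L 17450115 to 17450650 with a signal of 165 (percentile 28.2), passing in replicate 3 alone with a signal of 69.3. That summit was also within 500 bp of the start of lncRNA:CR46204, so the peak cannot be assigned to dl alone.

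The mesoderm determinants twi and sna, which like sog and brk are early targets of Dorsal, were not bound and had best scores of 72 and 185. The protease gene rho reached 726 in replicate 1 and 232 in replicate 2, with no entry in replicate 3. In dorsal ectoderm, neither zen, a homeodomain gene, nor tld, whose protease cleaves Sog, had an entry in any replicate. The genes that divide the neural ectoderm into columns, vnd and ind, did not exceed a score of 35, and the midline gene sim did not exceed 128.

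Neurogenesis genes were bound in 4 of 11 cases, and none of the 4 is a proneural gene. The peak of SoxN (FBgn0029123), a Sox factor of the neural ectoderm, lay 176 bp upstream at 2L 8825201 to 8825736. Its signal was 260.1 in the conservative list (percentile 58.3) and 60.8, 74.95 and 106 in replicates 1, 2 and 3, at percentiles 18.8, 41.7 and 41.6. The Snail-family gene esg (FBgn0287768) had a peak 37 bp upstream at 2L 15333561 to 15334096 with a signal of 264 (percentile 59.1). It passed in replicates 1 and 3 with signals of 73.1 and 124, and missed in replicate 2 with a score of 818.

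The pan-neuronal RNA-binding protein gene elav (FBgn0260400) was bound 230 bp upstream of its first start site, at X 523188 to 523723, with a signal of 182 (percentile 35.5). It passed in replicate 1 alone, with a signal of 66.1 and a summit only 42 bp upstream. The conservative summit lay in an intron of arg, also within 500 bp of the start of lncRNA:enrr. At pros (FBgn0004595), a homeodomain gene that ends neuroblast self-renewal, the peak lay 200 bp upstream of the last of 4 start sites at 3R 11372320 to 11372855, in coding exon sequence of longer pros transcripts. The signal was 171 (percentile 30.9), and the peak passed in replicate 3 alone with a signal of 82.8.

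No passing peak was found at the proneural genes ac, sc and ato, nor at ase. Among them ac and ase had no entry in any replicate, and the best scores were 315 at sc and 371 at ato. The neuroblast genes dpn, wor and nerfin-1 reached 26, 316 and 35. Both wor and esg encode Snail-family factors, and of the pair only esg was called bound.

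Mesoderm and muscle genes were bound in 3 of 7 cases and included the strongest peak of all members. Mef2 (FBgn0011656), the MADS-box gene of muscle differentiation, had a peak at 2R 9958803 to 9959078, 55 bp upstream of its first start site, with a signal of 464.5 and rank 786 of the conservative list (percentile 82.1). The replicates placed the summit 59, 58 and 54 bp upstream, with signals of 130, 125 and 198 at percentiles 72.5, 72.1 and 77.3. Its peak was 276 bp wide, while each of the other 15 bound members had a peak of 536 bp, the median width of the list. The homeodomain gene tin (FBgn0004110), needed for heart and visceral muscle, had a peak 155 bp upstream at 3R 21378554 to 21379089 with a signal of 315 (percentile 67.2). It passed in replicates 1 and 2 with signals of 82.5 and 94.3, and scored 560 in replicate 3. The RNA-binding protein gene how (FBgn0264491) had a peak 102 bp upstream at 3R 22041821 to 22042356 with a signal of 204 (percentile 43.05), which passed in replicate 2 alone, with scores of 777, 850 and 409. The visceral mesoderm genes bap and bin, the fibroblast growth factor receptor gene htl and the MyoD-related gene nau were not bound, and no score at these 4 exceeded 250.

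The 5 classes could not be told apart by their bound share. The conservative list gave 25% for anterior-posterior genes (Wilson interval 8.89 to 53.2), 25% for pair-rule genes (7.15 to 59.1), 33.3% for dorsal-ventral genes (13.8 to 60.9), 36.4% for neurogenesis genes (15.2 to 64.6) and 42.9% for mesoderm and muscle genes (15.8 to 74.95). All 5 intervals overlap and contain the genome's 29.7%. Over replicates 1 to 3 the bound share was 8.33% ± 8.33, 16.7% ± 7.22, 22.2% ± 4.81, 21.2% ± 10.5 and 28.6% ± 14.3 for the classes as listed (means with SD, n = 3). The order of the class means was thus nearly kept, but the spread between replicates is as large as the steps between classes. Replicate 1 held none of the 12 anterior-posterior genes, a count of 0 that allows a share of up to 25%.

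**Figure D2:**
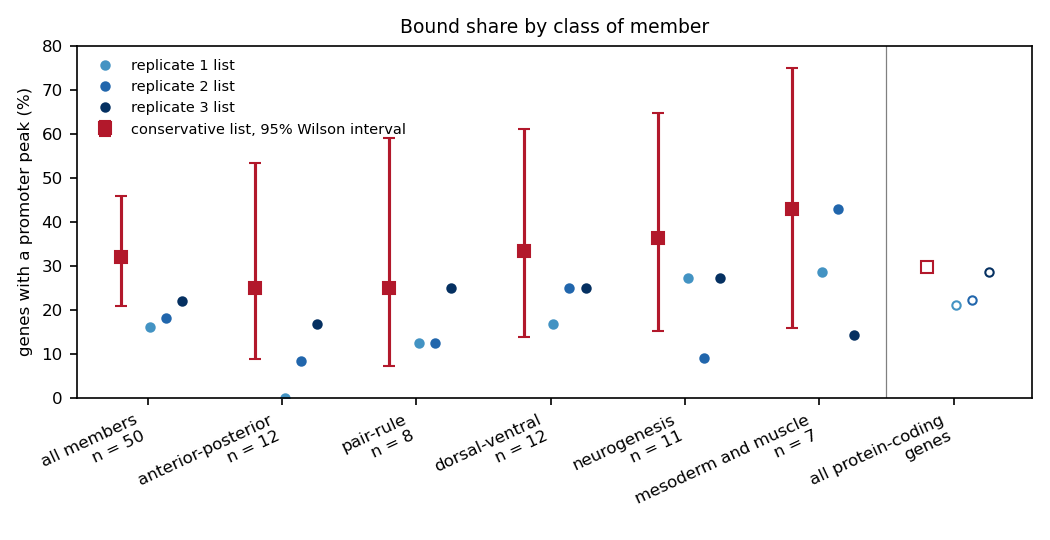
The vertical axis is the percent of genes with a promoter peak; squares are the conservative list with 95% Wilson intervals, circles the 3 replicate lists, and the open symbols at the right are all protein-coding genes. In the first column, for all 50 members, the square is at 32.0% and the circles at 16%, 18% and 22%, while the open square is at 29.7%.

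The peaks of the members ranked lower than those of other genes. The median percentile of the strongest promoter peak was 45.3 for the 16 bound members and 64.5 for all 4153 bound protein-coding genes. In replicates 1, 2 and 3 the medians were 33.2, 38.2 and 37.6 for members, against 59.8, 60.05 and 63.05 for all bound genes. Thus the members' median was lower in each list. When only the upper 50% of the conservative peaks by signal was counted, 6 members were bound (12%, against 19.7% of protein-coding genes), namely opa, sog, esg, SoxN, Mef2 and tin. Among the 1000 peaks of highest signal 1 member remained, Mef2 (2.00%, against 9.97%). A peak of the members was found in fewer replicates: 4 of the 16 strongest peaks (25%, opa, sog, SoxN and Mef2) overlapped a passing peak in all 3 replicates, against 57.2% for all bound genes. This may not be separate from the lower signal. Of the members' strongest peaks 37.5% lay in the upper 50%, against 66.1% for all bound genes, and peaks of like strength were not compared.

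By chromosome arm, 5 of 11 members on 2L, 1 of 5 on 2R, 0 of 6 on 3L, 5 of 17 on 3R and 5 of 11 on X were bound, against 28.2%, 30.7%, 28.8%, 29.6% and 32.3% of the protein-coding genes of those arms. In 14 of the 16 bound members (87.5%, against 43.3% of all bound protein-coding genes) no other gene started within 500 bp of the strongest summit, and dl and elav were the exceptions. The remaining series lists, named a, b and c by length, gave 18, 12 and 13 bound members (36.0%, 24.0% and 26.0%), against 32.4%, 28.8% and 26.4% of protein-coding genes. With a distance of 250 bp the conservative list gave 15 bound members (30.0%, against 26.8%), and with 1000 bp 16 (32.0%, against 32.4%). Counting a peak interval that covers the start site gave 15 (30.0%, against 25.5%). None of these settings moved the members far from the genome.

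The summits of the members sat farther upstream than usual. Their median position was 138.5 bp upstream of the start site, against 57 bp for all bound protein-coding genes. In 8 of 16 members (50%) the summit was more than 150 bp upstream, namely oc, btd, opa, brk, pros, elav, SoxN and tin, against 21.4% of all bound genes, and in dpp alone was it downstream. For elav, replicate 1, the only replicate list with a passing peak, placed the summit 42 bp upstream. In replicates 1, 2 and 3 the members' medians were 78, 140 and 102 bp upstream, against 58, 60 and 55 bp for all bound genes. The difference had the same direction in the 3 lists, although in replicate 1 it was small and rested on 8 genes.

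**Figure D3:**
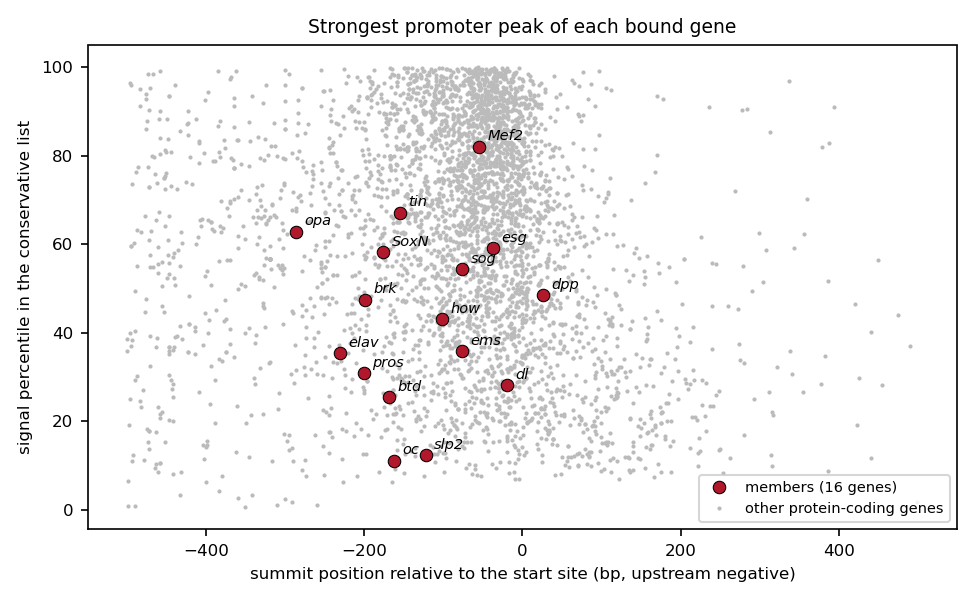
Each point is the strongest promoter peak of 1 bound gene in the conservative list, with its summit position (bp, upstream negative) on the horizontal axis and its signal percentile on the vertical axis; large red points are the 16 members and small grey points the other protein-coding genes. The members spread from percentile 11.1 (oc) to 82.1 (Mef2) and from 286 bp upstream (opa) to 26 bp downstream (dpp); the grey points are densest at high percentiles just upstream of the start site, where Mef2 lies among them.

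Among the 50 genes 34 had a single annotated start site and 16 had several, 75 start sites in all. Of these, 18 were bound and 57 were not, beside 5112 bound and 14164 unbound start sites of all protein-coding genes. Genes with more start sites have more chances of a call. Of the members with 1, 2 and 3 or more start sites, 9 of 34 (26.5%), 2 of 9 (22.2%) and 5 of 7 (71.4%) were bound, against 25.4%, 38.2% and 50.3% of protein-coding genes. Of 7 bound members with several start sites, 5 (oc, dl, sog, elav and Mef2) were bound at the most upstream one and not at their internal promoters more than 500 bp away. For dpp and pros it was the reverse, with no peak within 20 kb of the first start site. Taking the most upstream start site of each gene alone left 14 bound members (28.0%, against 28.0%), without dpp and pros. In replicate 3 the second start site of sog, 6894 bp from the first, was bound as well.

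**Figure D4:**
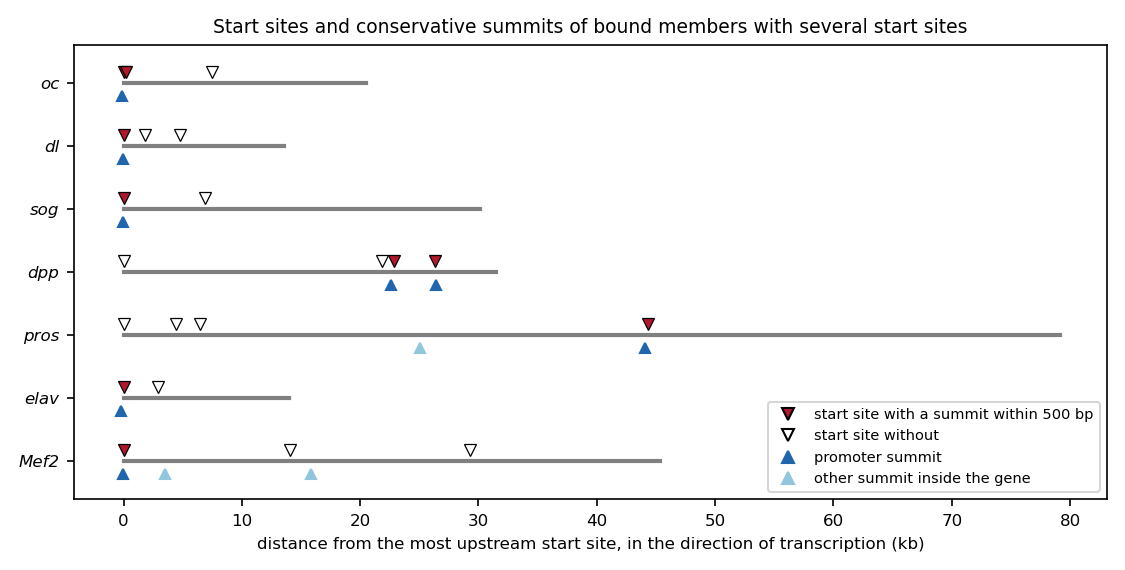
Each row is a bound member with several start sites, drawn as a line over the gene with distance from the most upstream start site in kb; triangles above the line are start sites (filled where a conservative summit lies within 500 bp) and triangles below are summits. The filled start sites are at the left end for oc, dl, sog, elav and Mef2, and well inside the gene for dpp and pros.

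Fewer of the patterning genes than of all protein-coding genes held a peak away from their own start sites. A conservative summit lay inside the gene or within 5 kb of it for 19 of 50 members (38%, against 55.2% of protein-coding genes), and 9 (18%, against 44.5%) had one more than 500 bp from their own start sites. A difference in surroundings goes with this: a median of 0 other protein-coding genes start within the same window of a member, against 3 for all genes, and 60.0% of members have none, against 9.57%. Its part in the low share was not tested. Of the 18 distal summits of members, 12 lay within 500 bp of the start site of another gene. The same share for the distal summits of all genes is not given. Counted by genes, a summit away from every start site was not rarer in members (10%, against 7.62% of protein-coding genes). Near pros, the summits at other genes' start sites lay by mRpL40, Irbp, mgr and Ipo9 downstream and by KP78a and KP78b inside it. The others of these 12 lay by asp near tld, by Pomp near cad and by CG42741 inside twi (2 summits). Upstream of Mef2, 1 lay by Pdrg1 and Pal1, and upstream of tin, 1 lay by mod(mdg4).

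The other 6 summits had no start site of any gene within 500 bp and belonged to 5 members (10%, against 7.62% of protein-coding genes). Mef2 held 2 of them, at 2R 9955059 to 9955594 in an intron 3531 bp downstream of its first start site (signal 331, percentile 69.2, found in 2 replicates) and at 2R 9942755 to 9943290 in 5′ untranslated sequence (signal 146, percentile 20.2, found in 1). At tin a summit 2507 bp upstream fell in an intron of mod(mdg4), at 3R 21376340 to 21376516, with a signal of 372 (percentile 73.7), higher than the promoter peak of tin, and was found in all 3 replicates. The summits 1098 bp upstream of brk (signal 164), 1123 bp upstream of esg (signal 151) and 4400 bp upstream of slp2 (signal 114.7) were found in 0, 1 and 1 replicates. Intronic summits inside the gene were seen in 3 members, pros, twi and Mef2 (6.0%, against 2.81% of protein-coding genes). In pros and twi they lay at the start sites of other genes, KP78b and CG42741, so among these 3 Mef2 alone had one away from any start site.

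The 8 motifs were searched as exact letters on both strands within 50 bp of the summit. The first is TATCGATA, the DNA replication-related element (DRE), which is bound by the factor Dref at promoters of growth genes, with its core ATCGAT, which every DRE also holds. The others are the GAGA repeat GAGAGAG, bound by GAGA factor, the site CAGGTAG of Zelda, which opens early embryonic chromatin, the core GGTCACACT of promoter Motif 1, the E-box CAGCTG, the TATA box TATAAA and the core CAGGGCTG of the ZIPIC site. None of the 16 bound members held a DRE (a count of 0 that allows a share of up to 18.8%), against 16.3% of the 3624 promoter summits of protein-coding genes. The DRE core was present at 1 member, Mef2, which also held the Motif 1 core (6.25%, against 32.8% for the DRE core and 2.87% for the Motif 1 core). The GAGA repeat was present at 4 of 16 (25%, against 4.22%), namely sog, brk, btd and how. The members are counted here at the strongest summit of each gene, while the genome shares count every promoter summit. Over all 18 promoter summits of members the GAGA repeat was at 4 (22.2%) and the DRE at 0. No bound member had the E-box, the ZIPIC core or the Zelda site (against 11.5%, 1.71% and 0.359%), and 2, tin and esg, had the letters of the TATA box (12.5%, against 11.4%). In esg they began 7 bp downstream of a summit 37 bp upstream of the start site. In tin they began 34 and 32 bp upstream of a summit that was itself 155 bp upstream, so they lay farther from the start site.

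Strength and base composition move with these motifs. The DRE was found at 25.6% of promoter summits in the upper 50% of the list by signal and at 5.07% in the lower 50%, where 10 of the 16 members lie. Median GC content was 53.5% at the members' strongest summits, against 42.6% at all promoter summits, and among the members ran from 29.7% at elav to 61.4% at btd. Where GC content was at least 50% the DRE was found at 6.49% and the GAGA repeat at 9.99% of summits, and where it was lower at 19.1% and 2.59%. Of the 4 members with a GAGA repeat, brk and btd had a GC content above 50%, and sog and how were below it. The part of strength and composition in the members' motif content was not tested.

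The 3 members outside the first 5 that hold the GAGA repeat are shown because the repeat was the most frequent motif at the members' summits; they were chosen after their sequences were seen. Capitals mark GAGAGAG or its reverse complement, CTCTCTC. In brk the repeat stands on the opposite strand. Only the 50 bp on either side of the summit were searched, so its closeness to the summit is no result.
brk, chrX:7307690-7307790, plus strand: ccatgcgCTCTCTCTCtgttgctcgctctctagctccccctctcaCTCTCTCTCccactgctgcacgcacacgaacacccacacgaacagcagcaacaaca
how, chr3R:22042039-22042139, plus strand: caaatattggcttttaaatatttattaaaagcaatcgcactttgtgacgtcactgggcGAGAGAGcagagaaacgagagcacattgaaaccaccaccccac
btd, chrX:9693967-9694067, plus strand: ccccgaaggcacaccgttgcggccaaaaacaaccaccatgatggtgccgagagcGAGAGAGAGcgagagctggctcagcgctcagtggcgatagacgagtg

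**Figure D5:**
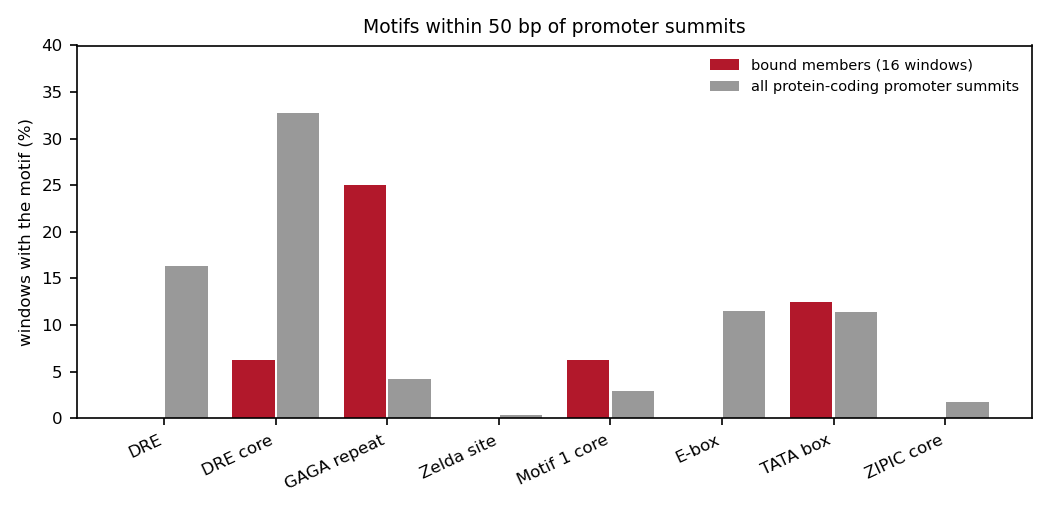
Bars give the percent of windows within 50 bp of summits that hold each motif, for the strongest summit of each of the 16 bound members (red) and for all 3624 protein-coding promoter summits (grey). The red bar for the GAGA repeat is at 25% beside 4.22%, and there is no red bar for the DRE, where the grey bar is at 16.3%; each red bar rests on 4 windows or fewer.

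The same letters were counted in the promoters of all members, 250 bases before to 50 after each start site, to compare bound with unbound genes. A DRE stood in the promoters of 0 of 16 bound members and of 2 of 34 unbound ones, cad and vnd (5.88%), against 27.8% of all bound and 2.71% of all unbound protein-coding genes. The GAGA repeat was in 8 of 16 bound members (50%, btd, sog, brk, dpp, elav, esg, Mef2 and how) and in 7 of 34 unbound ones (20.6%), against 11.9% and 7.88% of all genes. The Zelda site showed the reverse: it was in 1 of 16 bound members, dpp (6.25%), and in 11 of 34 unbound ones (32.4%), against 2.46% and 2.23% of all genes. Those 11 were hb, kni and gt of the gap genes, ftz, odd and slp1 of the pair-rule genes, sna, and the neural genes ac, sc, ato and dpn. A match of letters does not show that a factor binds there, and genes with several start sites offer more sequence to match.

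The unbound members were not all empty in the authors' ranked lists, which also hold peaks that failed the threshold. A ranked entry lay within 500 bp of a start site for 38 of the 50 members in each replicate (76.0%), against 61.6%, 59.6% and 69.8% of protein-coding genes in replicates 1, 2 and 3. Among the 34 unbound members the shares were 67.65%, 64.7% and 64.7%, against 45.8%, 42.6% and 57.1% of unbound protein-coding genes. Over the 34 unbound members the median of the best score, where there was one, was 72, 86.5 and 181.5 in replicates 1, 2 and 3, against 88, 120.5 and 127 for all unbound protein-coding genes. For the 16 bound members it was 845, 834 and 901.5. Of the 34 unbound members, 7 had no entry in any replicate, namely tll, ftz, zen, tld, ac, ase and bin. Only bcd, Kr and odd passed in another of the 7 thresholded lists, and the remaining 31 passed in none. For these counts of members without an entry or without a pass, no share of all protein-coding genes is given.

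Further genes of pattern and cell fate, 82 in number and outside the 50, were bound in 24 cases in the conservative list (29.3%, against 29.7% of protein-coding genes). In replicates 1, 2 and 3 the count was 13, 17 and 23 (15.9%, 20.7% and 28.05%, against 21.1%, 22.3% and 28.6%), so that replicate 1 was farthest below the genome. The list as drawn up holds at least 3 genes that do not belong to their class, none of them bound. They are Dsk, a neuropeptide gene, and tsh, a homeotic gene of the trunk, under pair-rule, and bib, a neurogenic gene, under mesoderm and muscle. Other genes that were kept, the bound sob among them, may also fit their class loosely, so the class counts are not those of clean classes. Without these 3, a choice made after the values were seen, 24 of 79 were bound (30.4%). By class they were 3 of 13 anterior-posterior genes, led by cnc (signal 263) and pum (signal 234), 2 of the 4 left under pair-rule, ftz-f1 (signal 387) and sob (signal 383), and 7 of 24 dorsal-ventral genes, led by ush (signal 531) and tok (signal 269). Neurogenesis genes were bound in 6 of 19 cases, led by brat (signal 606) and mam (signal 562), and mesoderm and muscle genes in 6 of the 19 left, led by sd (signal 275) and lbe (signal 234). The highest of these signals, those of brat, mam and ush, exceed that of Mef2, the strongest among the 50 members.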

How the data were processed

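ChIP-seq peak lists of 3 libraries of CG34224-eGFP embryos were used; chromatin was sonicated to 200 to 800 bp, per the labels. The deposited lists are on dm6 and are ranked or thresholded by IDR; replicate lists come from 1 library each, and series lists name all 3 as their source, per the deposited descriptions, without saying which were compared by IDR. The aligner, peak caller and IDR version were not given in the sources used here. Per the deposited files, the score of a peak is an IDR-scaled value of at most 1000, at least 830 in thresholded lists. The signal column was deposited by the authors with no stated scale. All peak ends lay within the chromosome lengths of the Release 6 reference.

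Summits (peak start plus offset) on the main arms were compared with start sites of Ensembl BDGP6.54, without transposable elements, in Python 3.11.15 with pandas 2.3.3. A peak counted as found in a replicate when a replicate peak shared at least 50% of the shorter interval. Bound calls and overlaps were tested on simulated data with planted summits. Shares are given with Wilson intervals from scipy 1.17.1, and no p-values were computed, since there is 1 group and no set test was run. Members, classes, motifs and further genes were chosen with earlier results of these data known. Every bound member, every unbound member with a passing peak or a summit within 5 kb, and the 2 strongest further genes of each class are named. Alternatives changed the distance, list, threshold, start sites, windows and overlap, and left out each replicate.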

Additional observations from a re-analysis of the deposited data

How the results depend on the processing

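The count of 16 bound members moved to 8 and 9 in the lists of replicates 1 and 2, to 6 in the upper 50% of peaks and to 1 in the 1000 strongest; the cause of the shift between lists was not tested. By class, the 3 anterior-posterior genes became 5 in series list a, 1 in series list b, 0 and 1 in replicates 1 and 2, and 0 in the upper 50% and the 1000 strongest peaks. The 2 pair-rule genes became 1 with 250 bp, in series lists b and c, in replicates 1 and 2, in the upper 50% and with the peak interval over the start site, and 0 in the 1000 strongest. The 4 dorsal-ventral genes became 2 in replicate 1, 1 in the upper 50% and 0 in the 1000 strongest, and the 4 neurogenesis genes 1 in replicate 2, 2 in the upper 50% and 0 in the 1000 strongest. The 3 mesoderm and muscle genes became 1 in replicate 3 and in the 1000 strongest. Members with a summit in the gene or within 5 kb numbered 19, and 11 and 12 in replicates 1 and 2, 9 in the upper 50% and 4 in the 1000 strongest. Each of these lists holds fewer peaks than the conservative list. No share of all protein-coding genes within 5 kb is given for them, so the fall cannot be set against the genome. The median percentile of 45.3 became 50.6 and 40.7 in series lists b and c and 33.2, 38.2 and 37.6 in replicates 1, 2 and 3. The median position of -138.5 bp became -89.5 and -78 bp in series lists b and c and -78 and -102 bp in replicates 1 and 3. Peaks with a DRE numbered 0, and 1 held its core. Leaving out a replicate gave a mean of 8.5 to 10 bound members, and 5 to 6 bound in all those left. The 4 members whose peak overlapped 1 in all 3 replicates stayed 4 under both other overlap rules. No paired analysis was possible because there is 1 group. Depth is unknown, and classes of 7 to 12 genes limit what a share can show.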
